A study of Mus musculus with 14 samples.

Results

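The genes described here are 8 listed histone demethylase genes, Kdm5a, Kdm5b, Kdm5c, Kdm6a, Kdm6b, Kdm2a, Kdm2b and Kdm7a, out of 20242 gene symbols in the expression files. They were chosen by name, for the marks their proteins remove, and not by their values. Each was followed in RNA from 14 single mouse two-cell embryos made by somatic cell nuclear transfer (SCNT), in which a cumulus cell nucleus was placed in an enucleated oocyte of the B6D2F1 hybrid. The 6 treatments were control (3 embryos), VitaminC(0-8h) (1 embryo), VitaminC(8-15h) (2 embryos), TSA(0-8h) (3 embryos), TSA(0-8h)+VitaminC(0-8h) (2 embryos) and TSA(0-8h)+VitaminC(8-15h) (3 embryos). TSA is trichostatin A, a histone deacetylase inhibitor, given at 50 nM, and vitamin C was given at 10 µg/ml. The hours are counted from the start of egg activation. All embryos, controls included, were activated with strontium and cytochalasin B and cultured with deionized albumin. The sample labels place collection at 28 h after nuclear transfer. Each embryo is 1 library from a small share of its RNA, amplified before sequencing, so the spread between embryos holds biological and technical variation that cannot be told apart. The nuclear transfers behind the TSA(0-8h)+VitaminC(8-15h) embryos were made in separate experiments, and the labels do not say how those of the other groups were spread.

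Histone demethylases of the JmjC class oxidize the methyl group on a lysine with iron and 2-oxoglutarate, and vitamin C is known to help such enzymes keep their iron reduced. Kdm5a, Kdm5b and Kdm5c remove methyl groups from H3K4, a mark of active promoters. Kdm6a and Kdm6b act on H3K27, the mark laid by Polycomb repressive complex 2, and Kdm2a and Kdm2b act mainly on H3K36. Kdm7a acts on H3K9 and H3K27. In cloned embryos, H3K9 trimethylation carried over from the donor nucleus is known to limit activation of embryonic genes. Whether methylation of H3K4, H3K27 or H3K36 does so was not tested here. Transcript levels do not measure the activity of the enzymes.

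Expression is given as RPKM, reads scaled to transcript length and to the reads counted in the embryo, so that levels of different genes can be compared per length. The reads counted per embryo ranged from 3021540 to 13589389, and between 3322 and 6728 of 25650 transcript entries reached 1 RPKM. Libraries fell into 3 pools by their identifiers, with 5, 6 and 3 embryos, and a treatment's replicates lay in different pools. Replicates 1, 2 and 3 lay in pools 1, 2 and 3, except that the VitaminC(0-8h) embryo, numbered 1, lay in pool 2. The summed RPKM of 11 oocyte marker genes was 3887 to 11028 in the TSA(0-8h) embryos and 1122 to 3613 in the others. Omt2a alone made up 72.8% to 94.1% of it in the TSA(0-8h) embryos, and the sum of the other 10 was 650 to 1056 RPKM there against 216 to 1144 RPKM in controls. The summed RPKM of 10 two-cell embryo marker genes was 7.58 to 285 in controls, 149 to 418 in TSA(0-8h), 365 to 590 in TSA(0-8h)+VitaminC(8-15h), 185 to 554 in TSA(0-8h)+VitaminC(0-8h) and 360.4 to 1211 in VitaminC(8-15h) embryos, and 379.8 in the VitaminC(0-8h) embryo. Of 11 cumulus cell marker genes, 4 reached 1 RPKM in any embryo, 2 (Fshr and Inhba) were listed at 0 in all, and their sum ranged from 0 in a control and a TSA(0-8h) embryo to 144 in another TSA(0-8h) embryo. Amhr2 alone made up the highest sum, at 144 RPKM. Vcan reached at most 69.0 RPKM, and no other gene of this list exceeded 1.82 RPKM in any embryo. The part of maternal or donor cell RNA in the values below was not tested.

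All 8 genes had reads in all 14 embryos. By their median over the embryos the levels ran from Kdm5b (100.2 RPKM) and Kdm7a (75.6 RPKM) through Kdm6b (37.0 RPKM), Kdm5c (26.7 RPKM), Kdm6a (23.2 RPKM), Kdm2a (18.0 RPKM) and Kdm5a (13.9 RPKM) to Kdm2b (3.85 RPKM). The ranges of all neighbours in this order overlapped. Kdm5b was above Kdm7a in 11 of 14 embryos and Kdm7a above Kdm6b in 10 of 14, whereas Kdm6b was above Kdm5c in 6 of 14. The spread within each gene was larger than the step between most neighbours. The highest embryo exceeded the lowest by 1164-fold for Kdm5a, 873-fold for Kdm2b, 832-fold for Kdm6a, 548-fold for Kdm2a, 296-fold for Kdm6b, 203-fold for Kdm5b, 58.7-fold for Kdm5c and 6.85-fold for Kdm7a. The lowest values rested on few reads, such as 4 reads of Kdm5a and 2 reads of Kdm6a, and those ratios therefore carry a wide counting error.

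**Figure D1:**
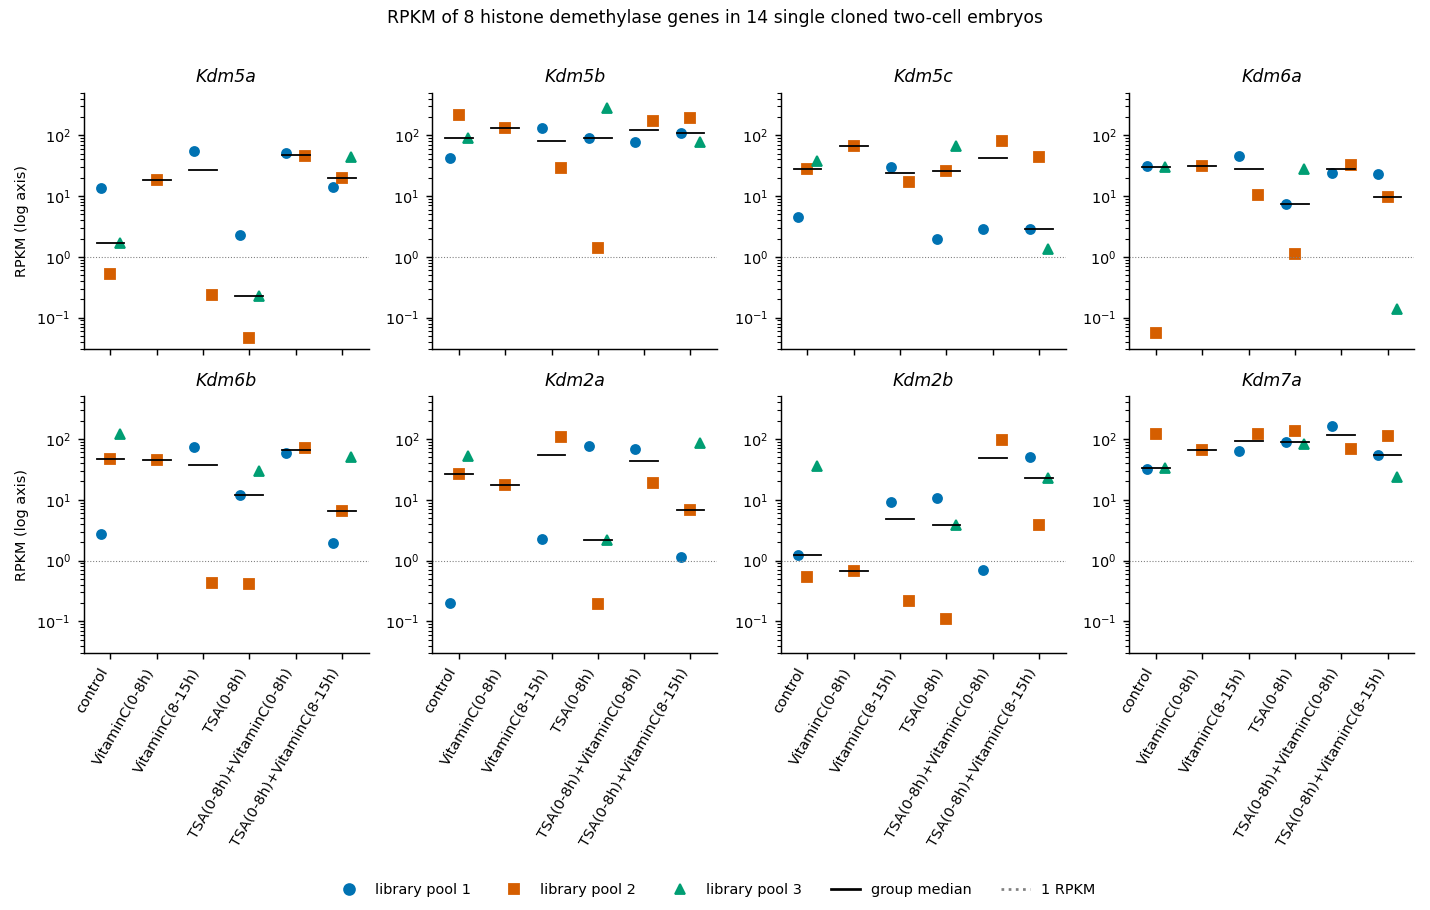
RPKM of each of the 8 genes (log axis) in the 14 embryos by treatment, with colour and shape for the library pool, a bar for the group median and a dotted line at 1 RPKM. Kdm7a lies between 23.6 and 161 RPKM in every embryo, whereas Kdm5a runs from 0.0467 to 54.3 RPKM.

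Among the H3K4 demethylases, Kdm5a (NM_145997, mm9 chr6:120314117-120394592, plus strand), which also binds the retinoblastoma protein, had the smallest p of the 8 genes in most comparisons given below. It was at 13.7, 0.531 and 1.70 RPKM in the control embryos and at 2.26, 0.0467 and 0.225 RPKM in the TSA(0-8h) embryos. With VitaminC(8-15h) added to TSA(0-8h) it was at 14.1, 19.7 and 43.1 RPKM, and with VitaminC(0-8h) added at 50.3 and 44.9 RPKM. The VitaminC(0-8h) embryo had 18.4 RPKM, and the VitaminC(8-15h) embryos had 54.3 and 0.236 RPKM. All 5 embryos given both agents lay above all 3 given TSA(0-8h) alone and all 3 controls, although control replicate 1 was close to the lowest of them. The share of all entries that separate in this joint way is not given here. For TSA(0-8h)+VitaminC(8-15h), 16.2% of all entries tested separated upward from control and 18.3% from TSA(0-8h). For TSA(0-8h)+VitaminC(0-8h), 27.2% did so from TSA(0-8h). The low values were not at the limit of detection, since 3 reads correspond to 0.0201 to 0.0905 RPKM of Kdm5a, except in TSA(0-8h) replicate 2 with its 4 reads.

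Kdm5b (NM_152895, chr1:136456748-136529454, plus strand), a demethylase known for its role in preimplantation embryos and stem cells, was at 42.6, 214 and 89.1 RPKM in control embryos. It was at 91.0, 1.38 and 280.4 RPKM in TSA(0-8h) embryos, so that this group held both the lowest and the highest value of all 14. The TSA(0-8h)+VitaminC(8-15h) embryos had 109, 195 and 77.2 RPKM, and the TSA(0-8h)+VitaminC(0-8h) embryos had 76.3 and 170.4 RPKM. The VitaminC(0-8h) embryo had 132 RPKM and the VitaminC(8-15h) embryos had 132 and 29.3 RPKM. Every treatment overlapped the range of the controls. Apart from TSA(0-8h) replicate 2 (68 reads), all embryos were at 29.3 RPKM or above.

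Kdm5c (NM_013668, chrX:148667563-148709078, plus strand), an X-linked gene known to escape X inactivation, was at 4.53, 27.5 and 37.6 RPKM in control embryos. It was at 1.95, 26.0 and 65.5 RPKM in TSA(0-8h) embryos, 2.83, 44.2 and 1.36 RPKM in TSA(0-8h)+VitaminC(8-15h) embryos, and 2.84 and 80.1 RPKM in TSA(0-8h)+VitaminC(0-8h) embryos. The VitaminC(8-15h) embryos had 30.2 and 17.1 RPKM and the VitaminC(0-8h) embryo had 67.3 RPKM. Low and high embryos occurred in the same treatments, and the medians differed between library pools, whose ranges overlapped. In pool 1, 4 of 5 embryos were between 1.95 and 4.53 RPKM and the VitaminC(8-15h) embryo was at 30.2 RPKM. All 6 embryos of pool 2 were at 17.1 RPKM or above, with a median of 35.8 RPKM against 2.84 RPKM in pool 1. Pool 3 held 1.36, 37.6 and 65.5 RPKM. Pool medians also differed for Kdm2a, at 2.25, 18.0 and 52.6 RPKM in pools 1, 2 and 3, and for Kdm2b, at 9.34, 0.603 and 23.1 RPKM. Those of the steadier Kdm7a were 63.6, 115.8 and 33.4 RPKM. The part of the pools in these levels was not tested. The donor cumulus cells came from female mice, so Kdm5d, the Y-linked relative of Kdm5c, is not in their genome. It was listed at no more than 0.121 RPKM in any embryo. How reads shared between such relatives were assigned is not given in the sources used here.

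**Figure D2:**
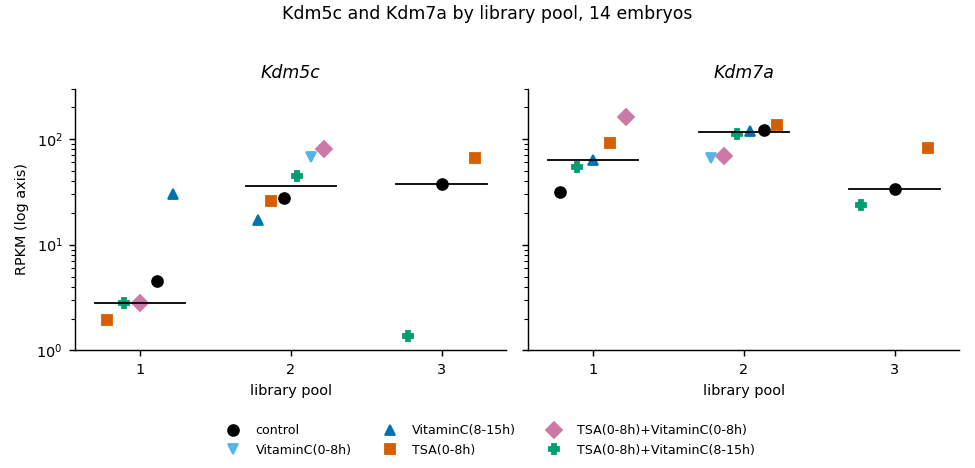
RPKM (log axis) of Kdm5c and Kdm7a in the 14 embryos by library pool, with colour and shape for the treatment and a bar for the pool median. For Kdm5c, 4 of the 5 pool 1 embryos lie below all 6 of pool 2, while Kdm7a lies at 31.5 to 161 RPKM in pool 1 and 65.5 to 135 RPKM in pool 2. Pool 3, with 3 embryos, spans 1.36 to 65.5 RPKM for Kdm5c and 23.6 to 82.3 RPKM for Kdm7a.

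The H3K27 demethylase Kdm6a (NM_009483, chrX:17739701-17857062, plus strand), known as UTX and also X-linked, was at 31.1, 0.0553 and 30.0 RPKM in control embryos. It was at 7.48, 1.09 and 28.1 RPKM in TSA(0-8h) embryos and at 22.6, 9.73 and 0.139 RPKM in TSA(0-8h)+VitaminC(8-15h) embryos. The TSA(0-8h)+VitaminC(0-8h) embryos had 23.8 and 32.6 RPKM, the VitaminC(8-15h) embryos 46.0 and 10.4 RPKM, and the VitaminC(0-8h) embryo 31.4 RPKM. Of the 14 embryos, 11 lay between 7.48 and 46.0 RPKM, and the 3 low embryos belonged to 3 different treatments. The lowest, control replicate 2, had 2 reads. Uty, its Y-linked relative and likewise absent from a female donor genome, was listed at no more than 0.0156 RPKM.

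Kdm6b (NM_001017426, chr11:69212010-69227177, minus strand), known as JMJD3 and inducible in many cell types, was at 2.75, 47.6 and 119.8 RPKM in control embryos and at 12.1, 0.405 and 29.6 RPKM in TSA(0-8h) embryos. It was at 1.98, 6.51 and 50.9 RPKM in TSA(0-8h)+VitaminC(8-15h) embryos and at 58.8 and 71.1 RPKM in TSA(0-8h)+VitaminC(0-8h) embryos. The VitaminC(8-15h) embryos had 74.5 and 0.435 RPKM, and the VitaminC(0-8h) embryo had 44.4 RPKM. The embryos given both agents from the start lay above every TSA(0-8h) embryo, whereas those given vitamin C later overlapped them.

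The H3K36 demethylase Kdm2a (NM_001001984, chr19:4316170-4398266, minus strand), whose CXXC domain binds unmethylated CpG, was at 0.203, 26.7 and 52.6 RPKM in control embryos. It was at 76.9, 0.194 and 2.17 RPKM in TSA(0-8h) embryos, 1.14, 6.89 and 86.5 RPKM in TSA(0-8h)+VitaminC(8-15h) embryos, and 69.0 and 18.7 RPKM in TSA(0-8h)+VitaminC(0-8h) embryos. The VitaminC(8-15h) embryos had 2.25 and 106 RPKM and the VitaminC(0-8h) embryo 17.4 RPKM. No treatment with 3 embryos was uniformly high or low, and every such group spanned more than 50 RPKM. Its SD over the 14 embryos, 2.39 on the log2(RPKM + 1) scale, was the largest of the 8 genes, and 47.5% of 1080 entries of similar mean had a lower one.

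Kdm2b (chr5:123320677-123465089, minus strand) recruits a variant Polycomb repressive complex 1 to CpG islands. The files hold it as 2 entries. The entry NM_001003953 was listed at 0 in all 14 embryos, and every read of the gene stood on NM_013910. The length that the read steps give for NM_013910, 3519 bases, is closest to a short Kdm2b transcript of 3532 bases that starts inside the gene, against 5259 bases for the longest annotated one. The short form is known to keep the CXXC domain and to lack the demethylase domain. The 0 cannot be read as absence of the long form, because 1154 of 2209 genes with 2 entries and any reads (52.2%) had reads on 1 entry only. Windows of 200 bases above the annotated starts are shown because the 2 forms differ in their start. Each CG, the dinucleotide bound by the CXXC domain, is in capitals. The window of the short form is chr5:123350365-123350564 and that of the full-length form, taken above the exons of all Kdm2b transcripts near its start, is chr5:123439316-123439515, both from mm9 on the minus strand. The full-length window lies 207 bases above its annotated start, whereas the windows it is compared with lie directly before theirs.
Kdm2b short form, before its start: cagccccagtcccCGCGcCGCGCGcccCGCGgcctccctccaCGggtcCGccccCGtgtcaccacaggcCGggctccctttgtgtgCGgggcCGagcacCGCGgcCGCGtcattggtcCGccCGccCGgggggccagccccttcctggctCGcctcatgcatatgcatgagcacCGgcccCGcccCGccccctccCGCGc
Kdm2b full-length form, above its start: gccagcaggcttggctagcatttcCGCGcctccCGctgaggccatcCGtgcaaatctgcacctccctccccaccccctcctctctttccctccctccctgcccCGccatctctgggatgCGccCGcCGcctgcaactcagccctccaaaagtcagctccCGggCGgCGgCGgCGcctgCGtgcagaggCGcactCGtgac
The window of the short form held 26 CG dinucleotides at 79% G and C, and 7.72% of 45933 windows of 200 bases before annotated protein-coding starts held as many or more. That of the full-length form held 16 at 69.5%, with 27.95% of windows at or above, against a median of 8 over all windows. Both windows held more CG than the median window, and that of the short form held more of it.

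The reads on NM_013910 gave 1.26, 0.538 and 36.3 RPKM in control embryos, 10.8, 0.109 and 3.89 RPKM in TSA(0-8h) embryos, and 50.3, 3.80 and 23.1 RPKM in TSA(0-8h)+VitaminC(8-15h) embryos. The TSA(0-8h)+VitaminC(0-8h) embryos had 0.697 and 95.3 RPKM, the VitaminC(8-15h) embryos 9.34 and 0.216 RPKM, and the VitaminC(0-8h) embryo 0.667 RPKM. Kdm2b reached 1 RPKM in 9 of 14 embryos, the fewest of the 8 genes. All 3 TSA(0-8h)+VitaminC(8-15h) embryos were above 1 RPKM, but the lowest of them was below the highest of each other group with more than 1 embryo.

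Kdm7a (NM_001033430, chr6:39086622-39156788, minus strand), a plant homeodomain-containing demethylase, was the steadiest of the 8. It was at 31.5, 122 and 33.4 RPKM in control embryos, 90.7, 135 and 82.3 RPKM in TSA(0-8h) embryos, and 53.8, 111 and 23.6 RPKM in TSA(0-8h)+VitaminC(8-15h) embryos. The TSA(0-8h)+VitaminC(0-8h) embryos had 161 and 68.9 RPKM, the VitaminC(8-15h) embryos 63.6 and 120.2 RPKM, and the VitaminC(0-8h) embryo 65.5 RPKM. No treatment separated from the controls. Its SD of 0.83 on the log2(RPKM + 1) scale was the smallest of the 8, and 7.56% of 357 entries of similar mean had a lower one. For their own levels Kdm6a and Kdm5c were nearly as steady, with 8.94% of 1130 and 10.05% of 935 entries lower.

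Differences between treatments were tested with limma on log2(RPKM + 1) over all transcript entries that reached 1 RPKM in every embryo of either group, with p-values adjusted by the Benjamini-Hochberg method. The comparisons share control or TSA(0-8h) embryos, so their values stand side by side here. No gene of the 8 passed an adjusted p of 0.05 in any of the 5 pairwise comparisons, in the interaction of TSA(0-8h) and VitaminC(8-15h), or in the test among the 6 treatments. Of 41 fitted differences, 10 exceeded their standard error and 2 had an unadjusted p under 0.05. The standard errors of the pairwise differences ranged from 0.91 to 2.52 on the log2 scale, so that changes of several-fold could not be resolved for most of these genes.

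In TSA(0-8h)+VitaminC(8-15h) against control, which asks what the combined treatment does, 7 of the 8 genes were tested and 0 were called, as were 0.0293% (higher) and 0% (lower) of 3416 entries. An unadjusted p under 0.05 was reached by 0 of the 7, beside 14.7% (higher) and 3.72% (lower) of all entries. Kdm5a differed by 2.61 ± 1.64 (SE) on the log2 scale (limma, adjusted p = 0.424), and within pools 1, 2 and 3 by 0.04, 3.76 and 4.03. Its groups did not overlap, at 14.1 to 43.1 RPKM against 0.531 to 13.7 RPKM, as was so with higher values for 16.2% and with lower values for 5.71% of all entries. That separation was lost under quantile normalization or median-ratio scaling. The summed two-cell markers of these groups, given above, did not overlap either, and their part in the difference was not tested. Kdm5a, Kdm2a and Kdm2b entered this test only through the treated embryos. Kdm2b differed by 1.84 ± 1.77 (SE) with overlapping groups (limma, adjusted p = 0.630). The other 5 tested genes differed by less than their standard errors. The median over the 7 genes was 0.05 against 0.78 over all entries, a shift of the whole table that was -0.03 after quantile normalization.

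In TSA(0-8h) against control, 5 of the 8 genes were tested and 0 were called, beside 0.0791% (higher) and 0.0395% (lower) of 2529 entries. An unadjusted p under 0.05 was reached by 0 of the 5, beside 5.46% (higher) and 9.73% (lower) of all entries, and the groups of 0 genes were free of overlap, beside 6.76% (higher) and 11.8% (lower). All 5 differed by less than their standard errors, with adjusted p from 0.784 to 0.993 (limma). Kdm6b differed by -1.76 ± 2.12 (SE), Kdm5b by -1.26 ± 1.59 (SE), or 0.77 without TSA(0-8h) replicate 2, and Kdm7a by 0.98 ± 1.31 (SE), while the median of all entries was -0.38. On the log2(RPKM + 1) scale Kdm7a was the only one of the 8 genes with a higher mean in the TSA(0-8h) embryos, whereas 3 of the 8 had a higher mean on unlogged RPKM (with Kdm5b and Kdm5c) and 3 after median-ratio scaling or quantile normalization (with Kdm5c and Kdm6a). Kdm7a was higher in 3 of 3 pools, at 1.50, 0.15 and 1.28 on the log2 scale. Its groups overlapped, and the two-sided exact permutation p was 0.3. Kdm5a, not tested for its low values, was lower in 3 of 3 pools, with overlapping groups and the same permutation p of 0.3. The share of all entries with 1 direction in 3 of 3 pools is not given here.

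In TSA(0-8h)+VitaminC(8-15h) against TSA(0-8h), which asks what vitamin C adds to TSA, all 8 genes were tested and 0 were called, as were 0% of 3243 entries in either direction. Kdm5a had the largest difference of the 8, 3.89 ± 1.29 (SE) on the log2 scale (limma, unadjusted p = 0.00828, adjusted p = 0.0997). It was higher in 3 of 3 pools, by 2.21, 4.31 and 5.17, and the groups did not overlap, as was so with higher values for 18.3% and with lower values for 3.42% of all entries. The two-sided exact permutation p was 0.1, the smallest that 3 against 3 embryos can give. An unadjusted p under 0.05 was reached with a higher value by 16.4% and with a lower value by 2.22% of all entries, so 1 of 8 genes is near the background. Kdm5a entered the test only through its values in the embryos given both agents, as did Kdm2a, Kdm2b and Kdm6b. With a filter of 1 RPKM in any 3 embryos, chosen after the data were seen, the adjusted p was 0.596, with a filter of 5 RPKM it was 0.00860, and with limma-voom on recovered reads it was 0.0112. Kdm2b differed by 2.18 ± 1.63 (SE) and was higher in 3 of 3 pools by 2.12, 2.11 and 2.30, but the groups overlapped (limma, adjusted p = 0.537). Kdm5b differed by 1.59 ± 1.54 (SE, adjusted p = 0.648 by limma), and by -0.43 without TSA(0-8h) replicate 2. Kdm7a differed by -0.93 ± 1.13 (SE) and was lower in 3 of 3 pools (exact permutation p = 0.3). The median over the 8 genes was 0.56 against 1.18 over all entries, an upward shift of the whole table. The share of all entries that were higher or lower in 3 of 3 pools is not given here.

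**Figure D3:**
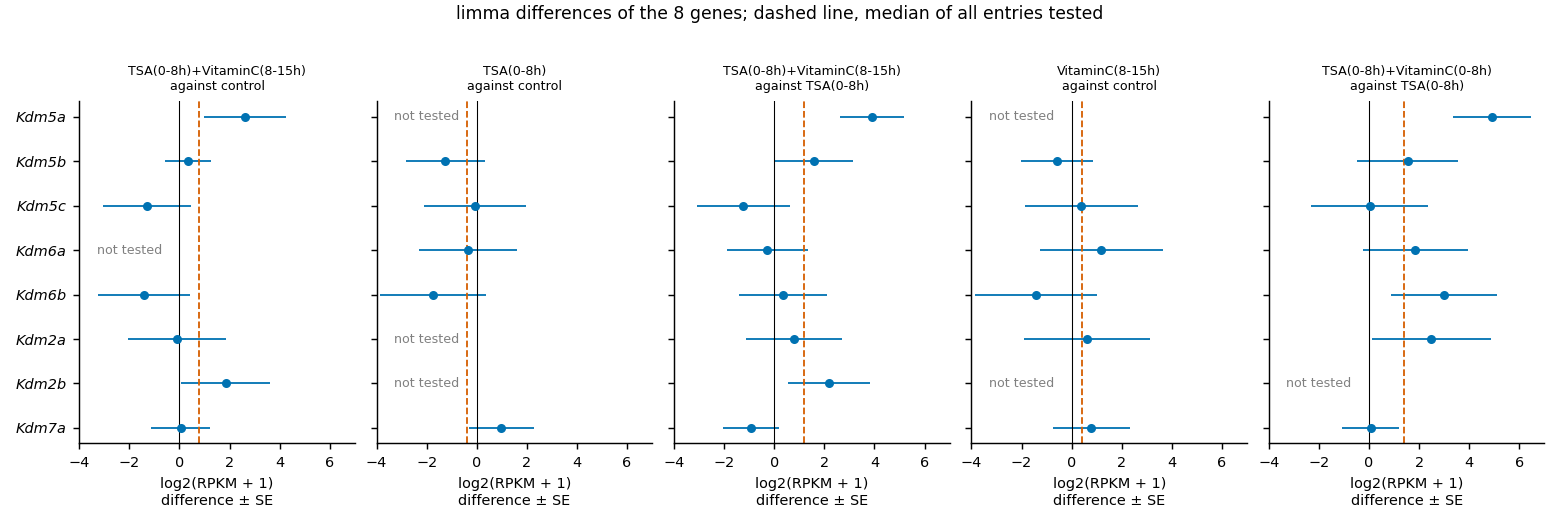
Fitted differences of the 8 genes on the log2(RPKM + 1) scale in the 5 pairwise comparisons, with bars of 1 standard error, a solid line at 0 and a dashed line at the median of all entries tested. Kdm5a lies farthest to the right in the 2 comparisons with TSA(0-8h), at 3.89 and 4.91, and most other bars cross 0.

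In TSA(0-8h)+VitaminC(0-8h) against TSA(0-8h), 7 of the 8 genes were tested and 0 were called, beside 4.71% (higher) and 0.0517% (lower) of 3866 entries. Kdm5a differed by 4.91 ± 1.57 (SE) on the log2 scale (limma, unadjusted p = 0.0110, adjusted p = 0.1001), and by 3.97 and 5.46 within pools 1 and 2. It entered the test only through its values in the embryos given both agents, as did Kdm6b and Kdm2a. Kdm6b differed by 2.99 ± 2.11 (SE, adjusted p = 0.561 by limma) and Kdm2a by 2.48 ± 2.37 (SE, adjusted p = 0.691 by limma). The groups of Kdm5a and Kdm6b did not overlap, 2 of 7 genes, beside 27.2% (higher) and 4.68% (lower) of all entries. An unadjusted p under 0.05 was reached by 1 of the 7, beside 17.9% (higher) and 1.19% (lower). For both the exact permutation p was 0.2, the smallest possible with 2 against 3 embryos. All 8 genes had a higher mean on the log2(RPKM + 1) scale in the embryos given both agents, against 7 on unlogged RPKM or after quantile normalization and 6 after median-ratio scaling, and the median over the 7 tested was 1.84 against 1.39 over all entries. For Kdm5a the adjusted p was 0.982 with the filter of 1 RPKM in any 3 embryos, 0.0115 with a filter of 5 RPKM and 0.0166 with limma-voom.

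In VitaminC(8-15h) against control, 6 of the 8 genes were tested and 0 were called, as were 0% of 3171 entries in either direction. All 6 differed by less than their standard errors, from -1.43 ± 2.43 (SE) for Kdm6b to 1.19 ± 2.45 (SE) for Kdm6a, with adjusted p from 0.835 to 0.949 (limma). The difference of Kdm6b was 1.43 without VitaminC(8-15h) replicate 2 and that of Kdm6a was -0.45 without control replicate 2. The 2 VitaminC(8-15h) embryos were far apart for Kdm5a (54.3 and 0.236 RPKM) and Kdm6b (74.5 and 0.435 RPKM), and 0 genes separated from the controls, beside 17.6% (higher) and 11.3% (lower) of all entries. An unadjusted p under 0.05 was reached by 0 genes, beside 9.62% (higher) and 4.60% (lower). The interaction asks whether VitaminC(8-15h) acts differently with TSA than without it. It was 2.82 ± 2.70 (SE) for Kdm5a and 2.17 ± 2.14 (SE) for Kdm5b, with adjusted p of 0.778 and 0.783 (limma), beside 0% of 4181 entries called and 6.84% (higher) and 3.20% (lower) at an unadjusted p under 0.05. Among the 6 treatments the smallest p of the 8 genes was that of Kdm5a (unadjusted p = 0.216, adjusted p = 0.676 by limma), beside 1.83% of 5041 entries called and 11.5% at an unadjusted p under 0.05. The VitaminC(0-8h) embryo has no replicate and entered only this last test.

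The number of the 8 genes at 1 RPKM or more was 7 or 8 in 11 embryos, 5 in control replicate 2 and VitaminC(8-15h) replicate 2, and 4 in TSA(0-8h) replicate 2. These 3 embryos also had the fewest entries at 1 RPKM, 3819, 3322 and 3556, although their reads counted, 6572802 to 7813871, lay inside the range of the others. Their summed RPKM over the 8 genes, 439, 284 and 165 RPKM, lay inside the range of the others as well (128 to 582 RPKM). Kdm5a was low in the embryos with the fewest entries. In the 5 embryos with the fewest entries, 3322 to 4249, it was between 0.0467 and 2.26 RPKM. In the 9 others, with 4864 to 6728 entries, it was between 13.7 and 54.3 RPKM in 8 and at 1.70 RPKM in control replicate 3. Among these 9, the embryo with 4864 entries had 50.3 RPKM and that with 6728 had 44.9 RPKM. How many other genes were low in the same 5 embryos is not given here. The 3 TSA(0-8h) embryos were among the 5, and all 5 embryos given both agents were among the 9. The part of this count in the differences of Kdm5a was not tested. In a whole embryo, transcription in fewer cells and less RNA per cell cannot be told apart.

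**Figure D4:**
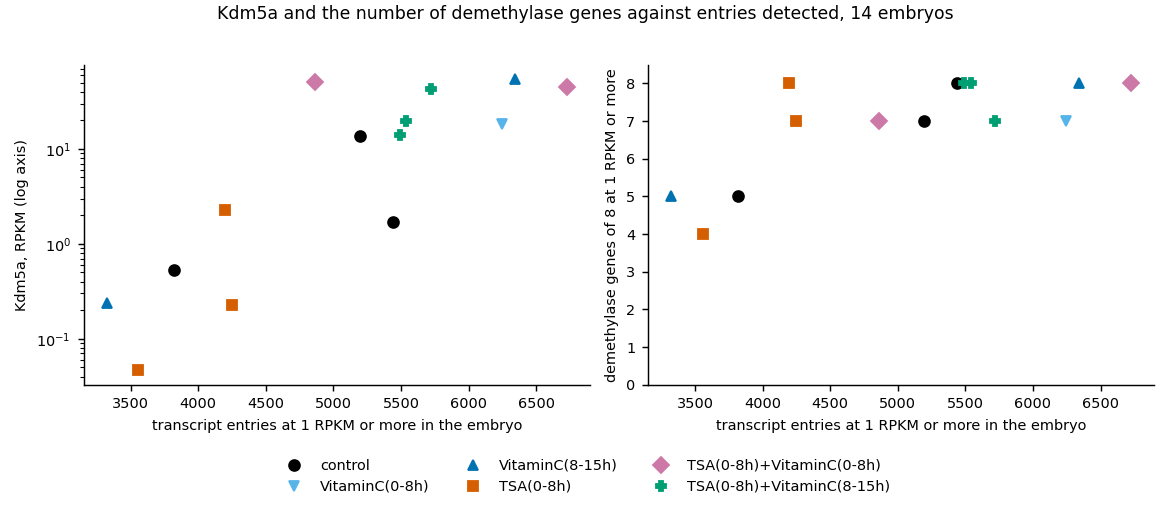
Left, Kdm5a in RPKM (log axis), and right, the number of the 8 genes at 1 RPKM or more, each against the number of transcript entries at 1 RPKM or more in the same embryo, with colour and shape for the treatment. The 5 embryos with at most 4249 entries have Kdm5a at 2.26 RPKM or less, and 8 of the 9 others at 13.7 RPKM or more.

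Over the 14 embryos, Pearson r of log2(RPKM + 1) between members ran from -0.558, for Kdm7a and Kdm2b, to 0.625, for Kdm5b and Kdm6b, and Kdm5a had r of 0.336 with Kdm5b and -0.211 with Kdm5c. Among 2784 genes at 1 RPKM or more in at least 10 embryos, those most like Kdm5a were Adnp (r = 0.969), Sf3b3 (r = 0.909) and E130309D02Rik (r = 0.901). Hmgxb3 (r = 0.885) and Pola1 (r = 0.844) were among those most like Kdm6b, and Kdm5b was most like Crk (r = 0.848), Cep120 (r = 0.834) and Dyrk1a (r = 0.830). For Kdm5c these were Pkd2l2 (r = 0.809), E330034G19Rik (r = 0.797) and Nasp (r = 0.770), and for Kdm6a they were Fam160a1 (r = 0.788), Akap12 (r = 0.778) and Phactr4 (r = 0.778). Kdm2a was closest to Bclaf1 (r = 0.781), Bptf (r = 0.745) and Eef1a1 (r = 0.736), and Kdm7a to Mtres1 (r = 0.717), Wasl (r = 0.702) and Retreg3 (r = 0.686). All these r are the highest out of many over the same 14 libraries, with their shared depth and pools, and are given as a description.

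The writers of the same marks, here with further subunits of the H3K4 and H3K27 complexes, were read beside the erasers. The H3K4 list held 13 genes with an entry, methyltransferases and subunits of their complexes. Of these, Kmt2c (48.3 to 182 RPKM) and Kmt2d (26.1 to 226 RPKM), the catalytic subunits of the complexes that hold Kdm6a, were above 1 RPKM in all 14 embryos. Of 11 genes of the H3K27 methyltransferase complexes, the core subunit Suz12 (111 to 569 RPKM) was the most even, and of 7 H3K36 methyltransferase genes Setd2 (40.9 to 189.8 RPKM) and Nsd1 (2.80 to 126 RPKM) were at 1 RPKM or more in all embryos. None of these 3 lists had a gene past an adjusted p of 0.05 in any of the 7 tests (limma). Each test held 7 to 11 of the H3K4, 7 to 10 of the H3K27 and 3 to 4 of the H3K36 genes. The median of the H3K4 writers tested in TSA(0-8h)+VitaminC(8-15h) against TSA(0-8h) was 1.30 on the log2 scale, of the H3K27 writers 1.33 and of the H3K36 writers 0.51, beside 1.18 for all entries. The PRC2 cofactor Aebp2, on its entry NM_001005605, was at 0.130 to 1.51 RPKM in TSA(0-8h) and 43.5 to 732 RPKM in control embryos, a difference of -6.47 ± 2.03 (SE, adjusted p = 0.133 by limma). This entry entered the test only through the controls. With its 3 entries summed, Aebp2 was at 9.39 to 145 RPKM and 50.8 to 794 RPKM, and the difference was -2.01 ± 1.41 (SE, adjusted p = 0.550 by limma).

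Of 18 other histone demethylase genes, 2 to 7 entered each of the 7 tests, and 1 of the 6 tested in 1 comparison passed. Kdm1b, an H3K4 demethylase of the other, flavin-dependent class that is known for its role in oocytes, was at 10.1 to 65.3 RPKM in TSA(0-8h)+VitaminC(0-8h) and 0.0257 to 0.133 RPKM in TSA(0-8h) embryos. The difference was 4.68 ± 1.13 (SE) on the log2 scale (limma, adjusted p = 0.0494), in a comparison in which 4.71% of entries were called higher. Kdm1b entered this test only through the group in which it is high. The call was lost without each of the 3 TSA(0-8h) embryos in turn (adjusted p = 0.153, 0.235 and 0.169) and under 7 other settings. The H3K9 demethylase Kdm3b was at 7.80 to 39.3 RPKM in TSA(0-8h)+VitaminC(8-15h) and 0.0103 to 0.207 RPKM in control embryos, a difference of 3.93 ± 1.11 (SE, adjusted p = 0.110 by limma), and it too entered the test only through the higher group. The entry NM_173001 of its relative Kdm3a was at 16.5 to 39.7 RPKM in TSA(0-8h)+VitaminC(8-15h), 1.43 to 27.6 RPKM in TSA(0-8h) and 50.8 to 113 RPKM in control embryos, with differences of -1.35 and -2.97 and adjusted p of 0.588 and 0.502 against control (limma). With the 2 entries of Kdm3a summed, the levels were 16.5 to 396 RPKM, 1.43 to 28.4 RPKM and 50.8 to 3648 RPKM. The differences were then -0.76 and -4.58, with adjusted p of 0.831 and 0.196 (limma).

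Of 18 partner genes of the Kdm2b, Kdm5 and Kdm6 proteins, 7 to 13 entered each of the 7 tests, and none of those passed an adjusted p of 0.05 (limma). The median of those tested in TSA(0-8h)+VitaminC(8-15h) against TSA(0-8h) was 0.12 beside 1.18 for all entries, and against control it was 0.91 beside 0.78. The entry NM_011378 of Sin3a, the scaffold of a deacetylase complex that binds Kdm5 proteins, was at 4.04 to 499 RPKM in TSA(0-8h)+VitaminC(8-15h) and 0 to 2.01 RPKM in TSA(0-8h) embryos, a difference of 5.35 with an adjusted p of 0.125 (limma), and entered the test only through the former. With its 3 entries summed, Sin3a was at 375 to 2687 RPKM and 23.8 to 388.9 RPKM, and the difference was 2.93 ± 1.01 (SE, adjusted p = 0.120 by limma). Morf4l1, a chromodomain protein that links Kdm5 proteins to gene bodies, was at 103 to 168 RPKM, 1.82 to 74.7 RPKM and 41.5 to 75.2 RPKM in TSA(0-8h)+VitaminC(8-15h), TSA(0-8h) and control embryos. Its adjusted p was 0.224 against TSA(0-8h) and 0.563 against control (limma). Ncoa6 (53.2 to 363 RPKM), Usp7 (6.39 to 236 RPKM) and Rnf2 (2.01 to 231 RPKM), of the Kdm6a and Kdm2b complexes, were at 1 RPKM or more in all 14 embryos, whereas Ring1, a relative of Rnf2, reached it in 1 and Yaf2 in 0. Among the marker lists, the oocyte gene Omt2a was the only one called, at 2.34 (adjusted p = 0.0121) in TSA(0-8h) against control and -2.06 (adjusted p = 0.0482) in TSA(0-8h)+VitaminC(0-8h) against TSA(0-8h) by limma, and it also passed the test among the 6 treatments. The median of the 7 oocyte marker entries tested in TSA(0-8h) against control was -0.07, beside -0.38 for all entries. With the entries of Omt2a summed, the adjusted p were 0.0779 and 0.0538 (limma).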

How the data were processed

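Each of the 14 SCNT embryos gave 1 RNA library. After trimming, the authors aligned reads to mm9 by TopHat (TopHat2 in the submitters' processing notes), counted them over exons per RefSeq transcript and deposited RPKM values, scaled to transcript length and total reads counted. Whether strand was used in counting is not given in the sources used here, so reads of overlapping antisense genes cannot be told apart. The study tested counts, which were not used here.

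Groups and replicate numbers came from the sample labels, and pools from the library identifiers. Of 25650 entries, 25250 had a symbol. RPKM values are whole multiples of what 1 read is worth, and reads were recovered for 14531 of 14532 entries above 0 in at least 2 embryos (99.99%, tolerance 1e-04 reads). Recovered reads made up 99.8% to 100.1% of the totals. Totals of 3021540 to 13589389 reads put the level of 3 reads on a 1 kb transcript at 0.221 to 0.993 RPKM, which covers counting error only.

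Differences were tested with limma 3.58.1 (R 4.3.3, eBayes with a trend) on log2(RPKM + 1), a scale that understates changes of low genes. Entries at 1 RPKM or more in all embryos of any group with 2 or more embryos were tested, with a threshold of 0.05 after Benjamini-Hochberg adjustment over all of them. The test was checked on simulated data. Single genes, entries summed, were also compared by two-sided exact permutation tests, 40 in all, with no adjustment over the members. P-values measure the spread between these embryos. Other steps ran in Python 3.11.15 with scipy 1.17.1, pandas 2.3.3, numpy 2.4.6 and, for plots, matplotlib 3.10.9.

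All 8 members were described in every embryo. Of the lists of writers, other demethylases and partners, the text names genes past the threshold, or up to 2 per comparison of 3 against 3 embryos with the smallest p among those whose groups do not overlap, and some with steady levels chosen after their values were seen. The genes most alike were the 3 with the highest Pearson r, of which one is not reported here. The members and lists were chosen with earlier results of these data known. Kmt2a and Dub1 were listed but matched no entry by symbol. Gene positions are from GENCODE vM1 (mm9), and the Kdm2b windows from the mm9 genome. Alternatives were a pseudocount of 0.1, no filter, a filter of 5 RPKM, quantile normalization, median-ratio scaling, summed entries, eBayes without a trend, limma-voom on recovered reads, 1 fit over all embryos, a block for the replicate number, leaving out each embryo and, chosen after seeing the data, a filter of 1 RPKM in any 3 embryos.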

Additional observations from a re-analysis of the deposited data

How the results depend on the processing

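With 3 or fewer embryos per group and standard errors of about 1 to 2.5 on the log2 scale, these data resolve only large differences, and a p above the threshold does not show that a gene was unchanged. No member was called in any of the 7 tests in the main fits, in any fit without 1 embryo, or under 9 of the 11 other settings. Under a filter of 5 RPKM and under limma-voom on recovered reads, 1 member (Kdm5a) was called in TSA(0-8h)+VitaminC(8-15h) against TSA(0-8h) and 1 (Kdm5a) in TSA(0-8h)+VitaminC(0-8h) against TSA(0-8h). The filter of 5 RPKM called 206 higher and 35 lower of all 2354 entries in the former comparison. In the latter it called 369 higher and 4 lower of 2812. Limma-voom called 280 higher and 35 lower of 3242 in the former, and 257 higher and 22 lower of 3865 in the latter. The filter of 5 RPKM tests fewer entries, and Kdm5a passed it only through the embryos given both agents. The TSA(0-8h) embryos had at most 2.26 RPKM of Kdm5a, so the filter keeps such a gene only where the other group is high. Selection not tied to a group gave Kdm5a larger adjusted p (limma). In the former and the latter comparison these were 0.720 and 0.790 when low entries were left in. With 1 RPKM in any 3 embryos they were 0.596 and 0.982. Kdm5a kept its direction in all of its fits, with adjusted p over the other settings of 0.00860 to 0.728 and 0.0115 to 0.982 in these comparisons.

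The 26 fitted differences given above for members, listed genes and Omt2a had 280 values under other settings, of which 0 reversed, 9 passed the threshold anew and 20, all of Kdm1b (7) and Omt2a (13), no longer passed it. Leaving out 1 embryo gave 159 values, of which 4 reversed. These were Kdm5b in TSA(0-8h)+VitaminC(8-15h) against TSA(0-8h), which ran from -0.43 to 3.01, Kdm5b in TSA(0-8h) against control (-2.67 to 0.77), and Kdm6a (-0.45 to 2.21) and Kdm6b (-4.29 to 1.43) in VitaminC(8-15h) against control. A further 13, again of Kdm1b (3) and Omt2a (10), no longer passed the threshold.

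The counts of members whose groups did not overlap moved most. The share of all entries that separate under these other settings is not given here, so the counts are a description only. In TSA(0-8h)+VitaminC(8-15h) against control the count of 1 became 0 under quantile normalization and 0 under median-ratio scaling, in TSA(0-8h)+VitaminC(8-15h) against TSA(0-8h) the count of 1 became 0 and 2, and in VitaminC(8-15h) against control the count of 0 became 1 and 1. Without 1 embryo the counts ran from 1 to 2 in TSA(0-8h)+VitaminC(8-15h) against control, 0 to 2 in TSA(0-8h) against control, 1 to 3 in TSA(0-8h)+VitaminC(8-15h) against TSA(0-8h), 0 to 5 in VitaminC(8-15h) against control and 2 to 6 in TSA(0-8h)+VitaminC(0-8h) against TSA(0-8h), where smaller groups separate more easily.

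Embryos with the same replicate number did not deviate together (mean correlation of same-numbered embryos -0.0183, -0.0026 and -0.0049 in the 3 comparisons of 3 against 3), so the numbers were not taken as pairs. In the pairwise comparisons the replicate number is also the pool. The differences within pools given above therefore use the same pairs as the replicate block and are not a separate check. They are a description, and the share of all entries that go 1 way in 3 of 3 pools is not given here. With the replicate number as a block, 0 members were called in any test, and the adjusted p of Kdm5a was 0.101 in TSA(0-8h)+VitaminC(8-15h) against TSA(0-8h), 0.223 in TSA(0-8h)+VitaminC(0-8h) against TSA(0-8h) and 0.479 in TSA(0-8h)+VitaminC(8-15h) against control. Over all entries the replicate block moved the calls in these 3 comparisons from 0 higher and 0 lower to 171 and 25, from 182 and 2 to 2 and 3, and from 1 and 0 to 14 and 6. Quantile normalization brought the median of all entries from 1.18 to 0.09 in TSA(0-8h)+VitaminC(8-15h) against TSA(0-8h) and from 1.39 to 0.06 in TSA(0-8h)+VitaminC(0-8h) against TSA(0-8h), and the difference of Kdm5a to 1.84 and 3.28.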
